A study of Mus musculus with 6 samples.

Results

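The transcripts of 41 genes of the cell cycle and of DNA repair were examined for sites recovered with an antibody against ZFP36L2. The genes were a list of cyclins, cyclin-dependent kinases and their inhibitors, replication and mitosis genes and DNA repair genes, and their sites were all peaks of the authors' table that carried one of the 41 gene names. Peaks were present for 35 of the genes, 166 of the 55449 peaks in the table. Ccne1, Ccnb1, Cdkn1b, E2f1, Pcna and Aurka had no peak and were not tested. The list was drawn up with results of these data known, and Pms1 and Spidr already stood among the largest fold changes then, so counts of enriched genes are descriptions of this list.

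The libraries came from MLTC-1, a steroid-producing cell line grown from a mouse Leydig cell tumour, and they were made by eCLIP, where ultraviolet light joins proteins to the RNA they touch before an antibody pulls them down and the attached RNA is sequenced. All cells were crosslinked at 254 nm with 400 mJ per cm2. The ZFP36L2 antibody gave 2 immunoprecipitation libraries, each with an input library of RNA bound by any protein, and the rabbit IgG control gave 1 immunoprecipitation library, also with its input. The cells carried no labelled genetic change, and nothing in the labels says whether the libraries came from separate cultures. Each peak had 1 log2 fold change of ZFP36L2 over IgG and 1 adjusted p by the authors' deposited table, with no value per library, so the level in each library, the spread between libraries and the depth behind a peak are unknown. The IgG arm rested on 1 library, so antibody and library cannot be told apart in it.

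A peak counted as called when its adjusted p was under 0.05 and its log2 value was at least 1 away from 0, and a called peak is termed enriched above 0 and depleted below 0. The median over all peaks of the authors' deposited table was -1.06, so a value near -1 is the ordinary one here. Positions are on mouse build mm10, distances are to the ends of the RefSeq gene on GRCm38.p6, the same build, and all peaks of the listed genes lay inside their RefSeq gene.

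Markers of the line were partly present in the table. Of 13 Leydig cell markers, 8 had peaks, among them Cyp11a1, Star, Lhcgr and Nr5a1, while Cyp17a1, Hsd3b1, Hsd3b6, Hsd17b3 and Insl3 had none. The Leydig markers had 108 peaks, of which 35 were enriched, 33 of them in Cyp11a1, and 1 was depleted, where 2.22% of all peaks in the table were enriched and 5.44% depleted. None of 7 Sertoli cell and 5 hepatocyte markers had a peak, and 1 of 8 germ cell markers did. All 15 markers of cardiac muscle had peaks, 848 in all, led by Ttn with 566 and Ryr2 with 117, and 40 of these peaks were enriched and 2 depleted. All 8 macrophage markers had peaks, 39 in all, with 2 enriched and 1 depleted. By the authors' deposited table, the median log2 fold change was 0.39 for the Leydig and 0.30 for the cardiac peaks. It was -0.99 for the macrophage peaks and -2.5 for the only 2 germ cell peaks, both in Ddx4, against -1.06 for all peaks. Which library held these RNAs cannot be read from the table, and their part in the values of the listed genes was not tested.

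ZFP36L2 belongs to a family of zinc finger proteins that bind AU-rich elements, mostly in 3′ UTRs, and recruit deadenylases that shorten the life of the mRNA. Members of this family are known to restrain proliferation in developing lymphocytes through mRNAs of the cell cycle. Progression through the cycle is driven by cyclins with their kinases, which inactivate the retinoblastoma protein and release E2f transcription factors. DNA repair genes keep the copied genome intact and halt the cycle when it is damaged.

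Among the 35 genes with a peak, Spidr, Pms1, Mcm2 and Parp1 had an enriched peak, and Cdk6, E2f3, Mcm2, Spidr, Ccna2 and Atm a depleted one. Mcm2 and Spidr had both. By genes, 11.4% had an enriched peak against 5.04% of all 10818 genes in the table, and 17.1% had a depleted peak against 17.3% of all genes. By peaks, 5 of 166 were enriched (3.01% against 2.22% of all peaks) and 13 were depleted (7.83% against 5.44% of all peaks). Without Pms1 and Spidr, 2 of the remaining 33 genes (6.06%) and 2 of 147 peaks (1.36%) were enriched. The median log2 fold change by the authors' deposited table was -1.23 over the 166 peaks, against -1.06 over all peaks, and 33 of the 166 values lay above 0 (19.9% against 23.6%). Once all values were set relative to the median of all peaks, 70 of the 166 (42.2%) lay above it.

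**Figure D1:**
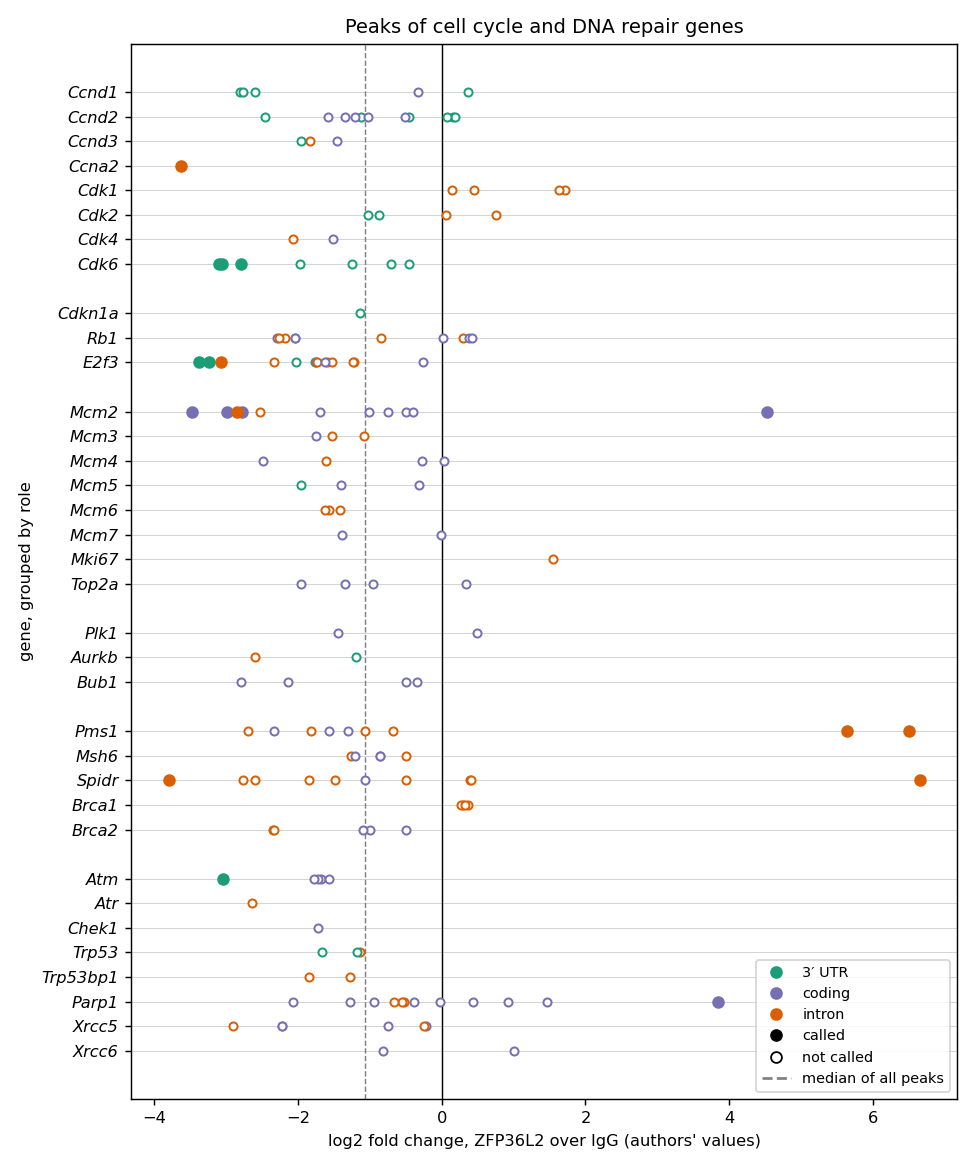
Every peak of the 35 cell cycle and DNA repair genes with a peak, 1 row per gene grouped by role, with the authors' log2 fold change of ZFP36L2 over IgG on the horizontal axis; colour gives the transcript region, filled points were called, and the dashed line is the median of all peaks (-1.06). The 5 enriched peaks, from 3.84 to 6.65, stand apart from all other points, which end at 1.72, while the 13 depleted peaks, from -3.79 to -2.77, adjoin uncalled ones.

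The 2 highest genes were both repair genes with intronic sites. Spidr (ENSMUSG00000041974.10), which encodes a scaffold of homologous recombination, had an enriched peak at chr16:16017314-16017437 on the minus strand, 124 nt long against a median of 35 nt for all peaks. Its log2 fold change was 6.65 (adjusted p = 7.8e-33), the 3rd highest of the 55449 peaks by the authors' deposited table. The site lay near the middle of the gene, 129414 nt from its 5′ end, with no other Spidr peak within 18.0 kb. The next one toward the 5′ end, at chr16:16035426-16035455 and also intronic, was depleted, with -3.79 (adjusted p = 8.1e-07) by the authors' deposited table. That was the lowest value of any listed gene, so Spidr held both extremes of the list. The other 8 Spidr peaks, 7 intronic and 1 coding, ran from -2.76 to 0.41 by the authors' deposited table, and none was called.

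Pms1 (ENSMUSG00000026098.13), a MutL homologue of the mismatch repair family, had 2 enriched peaks among 9, both intronic and on the minus strand of chromosome 1. The peak at chr1:53265181-53265215 had a log2 value of 6.50 (adjusted p = 4.6e-26), the 4th highest by the authors' deposited table. The peak at chr1:53264857-53264923, 257 nt away, had 5.64 (adjusted p = 1.1e-26) by the authors' deposited table. They began 31816 and 32108 nt into a gene of 107845 nt. A further intronic peak 343 nt downstream, at chr1:53264451-53264513, had -1.82 (adjusted p = 0.91) by the authors' deposited table and was not called. The difference of 7.46 log2 units between these neighbours was the widest between any 2 adjacent peaks of a listed gene up to 500 nt apart. The 7 uncalled Pms1 peaks, 3 of them coding, ran from -2.69 to -0.67 by the authors' deposited table.

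The other recombination and mismatch genes had no called peak. Msh6, a mismatch repair gene, had 5 peaks between -1.26 and -0.49 by the authors' deposited table. The 4 peaks of Brca1, a ubiquitin ligase of homologous recombination, were intronic and lay at 0.27 to 0.37 by the authors' deposited table, all with an adjusted p of 1. Brca2, a gene of homologous recombination, had 5 peaks from -2.35 to -0.49 by the authors' deposited table. Brca1 thus had every value above 0, whereas Msh6 and Brca2 had every value below 0, although none of these values was called. Against the median of -1.06 over all peaks, Msh6 and Brca2 had values on both sides.

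In the replication group, the one gene with calls was Mcm2 (ENSMUSG00000002870.8), a subunit of the helicase that opens replication origins. Its enriched peak, coding, at chr6:88888161-88888219 on the minus strand, had a log2 value of 4.52 (adjusted p = 1.1e-08) by the authors' deposited table. Touching coding peaks from 88885884 to 88885943, 2217 nt closer to the 3′ end of the gene, were depleted, with -2.98 (adjusted p = 0.00066) and -2.77 (adjusted p = 0.00083) by the authors' deposited table. A 13 nt coding peak at chr6:88887909-88887921 had -3.47 (adjusted p = 0.012), and an intronic peak at chr6:88889618-88889631 had -2.84 (adjusted p = 0.048) by the authors' deposited table. The enriched site and the nearest depleted one were thus separated by 239 nt, and the peak between them, at 88887922 to 88887967, had -0.40 by the authors' deposited table. The 6 uncalled Mcm2 peaks ran from -2.53 to -0.40 by the authors' deposited table.

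The other subunits of the same helicase had no called peak. Mcm3, Mcm4, Mcm5, Mcm6 and Mcm7 together had 15 peaks with a median of -1.41 and a range from -2.48 to 0.03 by the authors' deposited table. The nearest to a call was a coding peak of Mcm4 at -2.48 (adjusted p = 0.11) by the authors' deposited table. Top2a, the topoisomerase that untangles chromosomes, had 4 coding peaks from -1.95 to 0.34 by the authors' deposited table. Mki67, which encodes the proliferation marker Ki-67, had a single intronic peak at 1.55 (adjusted p = 0.52) by the authors' deposited table. Whether Mcm2 differed from the other subunits was not tested.

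The damage signalling and end joining group had 1 enriched and 1 depleted peak among 32, beside 2.22% of all peaks enriched and 5.44% depleted. Parp1 (ENSMUSG00000026496.11), which senses strand breaks by building poly(ADP-ribose), was enriched in a coding peak at chr1:180569046-180569089 on the plus strand, 155 nt from the 5′ end of the gene. Its log2 fold change was 3.84 (adjusted p = 3.4e-06) by the authors' deposited table. The next coding peaks, 4808 and 4834 nt into the gene, had 0.92 and 1.46, and the coding peak 14840 nt in had 0.43, by the authors' deposited table. The 5 coding peaks from 19247 nt onward lay, in order along the gene, at -0.94, -0.38, -0.02, -2.06 and -1.27 by the authors' deposited table. Coding values of Parp1 were thus above 0 in its 5′ part and below 0 farther on, but only the first peak was called. Against the median of -1.06 over all peaks, the 5 coding peaks from 19247 nt onward had values on both sides. Some of the coding peaks touched each other, and a change along the gene was not tested. The 3 intronic peaks of Parp1 lay between -0.66 and -0.53 by the authors' deposited table.

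Atm, the kinase that responds to double-strand breaks, had a depleted 3′ UTR peak at chr9:53439221-53439284, with -3.04 (adjusted p = 0.046) by the authors' deposited table. Its 4 coding peaks were close together at -1.77 to -1.56 by the authors' deposited table and were not called. The other members of this group had no called peak. Atr, the kinase of replication stress, had 1 intronic peak at -2.64, and Chek1, the checkpoint kinase it activates, 1 coding peak at -1.72, by the authors' deposited table. Trp53, the damage-responsive transcription factor, had 3 peaks from -1.67 to -1.13, and Trp53bp1, which steers breaks toward end joining, had 2 intronic peaks at -1.84 and -1.27 by the authors' deposited table. The Ku subunits Xrcc5 and Xrcc6, which hold broken ends, had 8 peaks from -2.90 to 1.01 by the authors' deposited table. The lowest of these, in an intron of Xrcc5, had an adjusted p of 0.083 by the authors' deposited table.

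**Figure D2:**
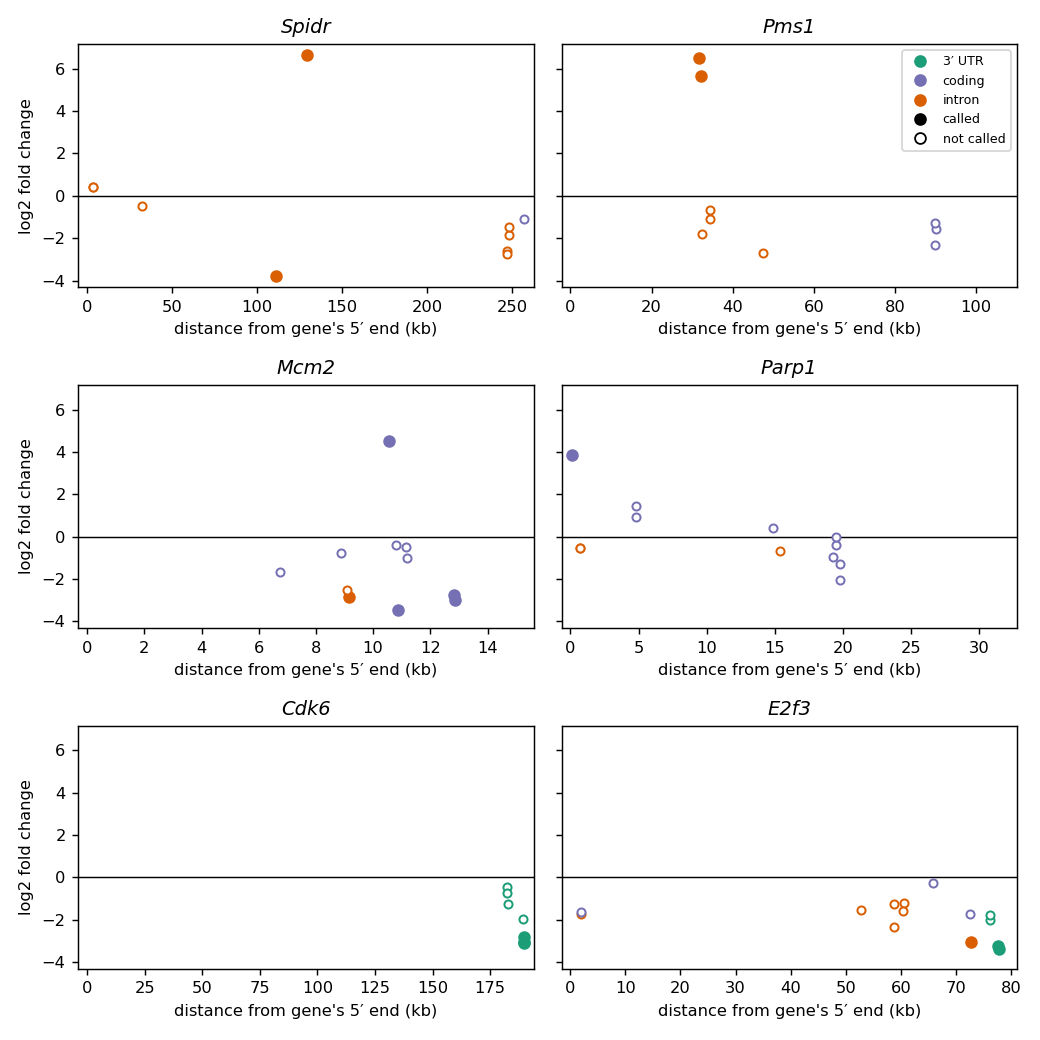
Log2 fold change of ZFP36L2 over IgG for each peak of Spidr, Pms1, Mcm2, Parp1, Cdk6 and E2f3, against the distance of the peak from the 5′ end of the RefSeq gene in kb; colours give the transcript region and filled points were called. The enriched sites of Spidr (6.65), Pms1 (5.64 and 6.50), Mcm2 (4.52) and Parp1 (3.84) are single points or a close pair among lower peaks of the same gene, and the depleted peaks of Cdk6 lie at its 3′ end.

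Among cyclins and kinases, no peak was enriched and 4 of 37 were depleted, beside 2.22% of all peaks enriched and 5.44% depleted. In this group, 0 of the peaks above 0 had an unadjusted p under 0.05 by the authors' deposited table. Cdk6 (ENSMUSG00000040274.11), the kinase partner of D-type cyclins, was depleted in 3 touching 3′ UTR peaks that covered 47 nt, from 3530729 to 3530775 on the plus strand of chromosome 5. Their log2 fold changes were -3.10 (adjusted p = 2.5e-08), -2.79 (adjusted p = 5.2e-06) and -3.05 (adjusted p = 1.4e-07) by the authors' deposited table, the first of them the smallest adjusted p among the depleted peaks of the listed genes. The stretch ended 233 nt before the 3′ end of the RefSeq gene. The other 4 Cdk6 peaks, also in the 3′ UTR, had -1.97, -1.24, -0.71 and -0.45 by the authors' deposited table, the lower values nearer the 3′ end. Ccna2, the cyclin of DNA synthesis, had 1 peak, intronic at chr3:36567229-36567291, which was depleted at -3.63 (adjusted p = 0.0016) by the authors' deposited table.

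The D-type cyclins, which carry growth signals into the cycle, had 19 peaks and no call, beside 2.22% of all peaks enriched and 5.44% depleted. Ccnd1 had 3′ UTR peaks at -2.81, -2.76, -2.59 and 0.36 and a coding peak at -0.33 by the authors' deposited table. The 11 peaks of Ccnd2 ran from -2.46 to 0.18, and its 3′ UTR and coding peaks overlapped in value, by the authors' deposited table. Ccnd3 had 3 peaks from -1.96 to -1.46 by the authors' deposited table. Of the other kinases, Cdk1, which drives entry into mitosis, had 4 intronic peaks at 0.15 to 1.72, all with an adjusted p of 1, while Cdk4 had 2 peaks at -2.07 and -1.51 by the authors' deposited table. Cdk2 had 4 peaks from -1.02 to 0.75 by the authors' deposited table. Cdk1, Brca1 and Mki67 were the 3 genes with every peak above 0, while 20 genes had every peak below 0. Relative to the median of all peaks, 5 genes had every peak above it and 12 every peak below it.

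Of the retinoblastoma axis, E2f3 (ENSMUSG00000016477.18), a transcription factor that switches on genes of DNA synthesis, had calls. All 14 of its peaks lay below 0, and 3 were depleted. They were touching 3′ UTR peaks at chr13:29908280-29908295 and chr13:29908296-29908341, with -3.37 (adjusted p = 0.018) and -3.23 (adjusted p = 0.038), and an intronic peak at chr13:29913354-29913365, with -3.07 (adjusted p = 0.044), by the authors' deposited table. Its other 3′ UTR peaks had -2.02 and -1.76, and its coding peaks -1.74, -1.62 and -0.26, by the authors' deposited table. Rb1, the retinoblastoma protein gene, had 10 peaks from -2.29 to 0.42, and Cdkn1a, a kinase inhibitor induced by Trp53, 1 peak in its 3′ UTR at -1.14, by the authors' deposited table. Neither had a called peak.

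The mitotic kinases had 8 peaks, of which none was called, beside 2.22% of all peaks enriched and 5.44% depleted. Of the 8 peaks, 2 had an unadjusted p under 0.05 by the authors' deposited table, both with values below 0. The lowest was a coding peak of Bub1, a kinase of the spindle checkpoint, at -2.79 (adjusted p = 0.059) by the authors' deposited table. Aurkb, the kinase of the chromosomal passenger complex, had -2.59 and -1.19, and Plk1, the polo-like kinase of mitotic entry, -1.44 and 0.49, by the authors' deposited table. Over all 27 genes with peaks but no call, 97 peaks ran from -2.90 to 1.72 by the authors' deposited table.

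Transcript regions were compared because the ZFP36 family is known for binding in 3′ UTRs. The 3′ UTR held 30 peaks in 11 of the genes (18.1% of their peaks against 13.6% of all peaks). None of the 30 was enriched, against 1.46% of all 3′ UTR peaks, and the highest was 0.36, in Ccnd1, by the authors' deposited table. Of these 30 peaks, only 4 lay above 0 (13.3% against 21.4% of all 3′ UTR peaks), and 0 of them had an unadjusted p under 0.05. Below 0, 9 of the 30 had one, and the like share over all 3′ UTR peaks was not computed. The 6 depleted ones, in Cdk6, E2f3 and Atm, stand beside 4.83% of all 3′ UTR peaks that were depleted. The median by the authors' deposited table was -1.72 for the 30 peaks and -1.08 for all 3′ UTR peaks. Touching peaks are not independent sites, and 5 of the 6 depleted 3′ UTR peaks were parts of the runs in Cdk6 and E2f3.

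Coding sequence held 74 peaks of the listed genes, with 2 enriched (Mcm2 and Parp1, beside 2.35% of all coding peaks) and 3 depleted, all in Mcm2 (beside 3.74% of all coding peaks). Their median was -1.09, against -0.72 for all coding peaks, by the authors' deposited table. Introns held 62 peaks, with 3 enriched (Spidr and Pms1, beside 2.17% of all intronic peaks) and 4 depleted (beside 7.04%). The intronic medians were -1.27 for the listed genes and -1.31 for all peaks by the authors' deposited table. When each gene was counted once, by its peak with the smallest adjusted p, the coding share was 28.6% in place of 44.6%. The intronic share was then 48.6% in place of 37.3%. Where the peaks of a gene tied in adjusted p, the one with the highest log2 value was taken, so these shares depend in part on that rule.

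**Figure D3:**
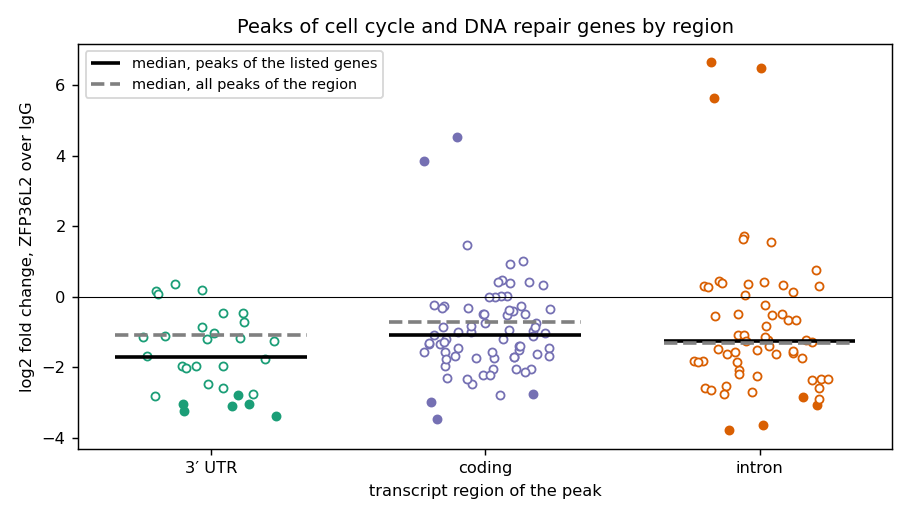
Log2 fold change of ZFP36L2 over IgG for the 166 peaks of the listed genes by transcript region; filled points were called, black lines are medians of the listed genes and dashed grey lines medians of all peaks of the region. No 3′ UTR peak lies above 0.36, the coding peaks reach 4.52, and the intronic peaks span the whole range from -3.79 to 6.65.

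Touching peaks of a gene mostly had like values, while peaks a short gap apart differed more at the median. Among 50 touching pairs in 22 of the genes, the median absolute difference was 0.30 log2 units, and 36 pairs differed by under 0.5. In 1 pair, the Mcm2 peaks with -3.47 and -0.40 by the authors' deposited table, the difference was 3.07. Among 14 pairs with a gap of up to 500 nt, the median difference was 1.68, with a range from 0.25 in Rb1 to 7.46 in Pms1. Several of these pairs came from Mcm2, Pms1 and Parp1, which had an enriched peak, and no such value was taken over all peaks.

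Other genes of the same pathways, 258 in a list drawn from textbook knowledge, of which 192 had a peak, were near the shares of all genes. That list, too, was drawn up with earlier results of these data known. Enriched peaks occurred in 9 of them (4.69% against 5.04%) and depleted peaks in 36 (18.8% against 17.3%), with a median of -1.29 over their 808 peaks by the authors' deposited table. By group, 5 of 42 other mitosis and chromosome genes had an enriched peak and 11 a depleted one. The other replication genes had 1 and 7 of 37, and the other cyclins, kinases, inhibitors and E2f genes 1 and 2 of 22. Of 37 other mismatch and recombination genes, none had an enriched peak (0 peaks above 0 with an unadjusted p under 0.05) and 9 a depleted one. The remaining repair and damage signalling genes had 2 and 7 of 54.

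By adjusted p, the first enriched peak in that list was the only peak of Incenp, the scaffold of the complex that holds Aurkb, in coding sequence with 4.78 (adjusted p = 2.2e-35) by the authors' deposited table. Skp2, the ubiquitin ligase subunit that removes Cdkn1b, followed with a coding peak at 5.21 (adjusted p = 9.3e-13), and Rev1, a translesion polymerase, had a coding peak at 5.27 (adjusted p = 3.3e-12) by the authors' deposited table. Coding peaks of the condensin subunit Smc2 and the cohesin subunit Smc1a had 4.50 (adjusted p = 3.9e-12) and 2.60 (adjusted p = 6.8e-08) by the authors' deposited table. The Smc1a peak was only 3 nt long, against a median of 35 nt for all peaks. Cenpf, a kinetochore protein gene that ranked between Skp2 and Rev1 by adjusted p, was enriched in its 5′ UTR with 3.88 (adjusted p = 1.6e-12) by the authors' deposited table.

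On the depleted side, Mgmt, which removes alkyl groups from guanine, had 3 depleted peaks among 11, the lowest an intronic one at -4.89 (adjusted p = 2.3e-10) by the authors' deposited table. That peak touched another of the depleted Mgmt peaks, so they are not independent sites. Rfc1, the large subunit of the clamp loader, had a coding peak at -4.03 (adjusted p = 1.6e-05), and Plk2, a polo-like kinase, a 3′ UTR peak at -4.26 (adjusted p = 2.3e-05), by the authors' deposited table. Fancl, the ubiquitin ligase of the Fanconi anaemia pathway, Cenpa, the centromeric histone, and Rpa1, the single-strand binding protein, had -3.94, -3.67 and -3.70 by the authors' deposited table. Bub3, a spindle checkpoint protein gene chosen after its values were seen, had 3 of 4 peaks depleted, and the depleted coding ones touched each other. The lowest was a 5′ UTR peak at -3.64 (adjusted p = 0.0014) by the authors' deposited table.

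**Figure D4:**
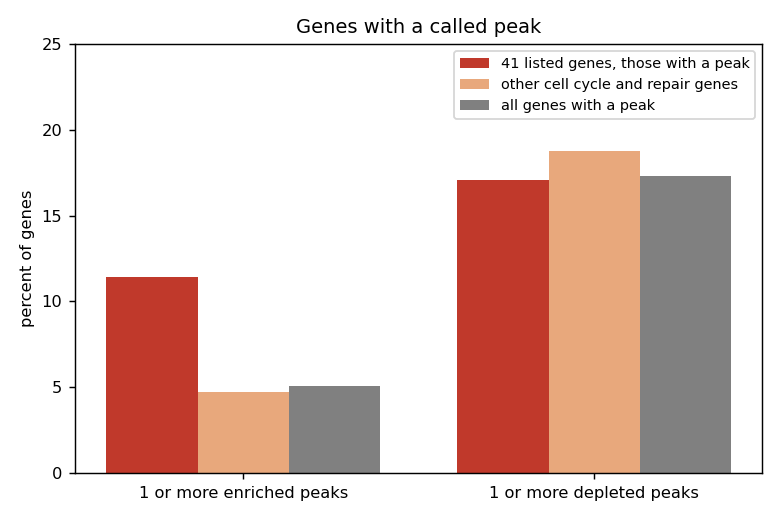
Percent of genes with 1 or more enriched (left) and depleted (right) peaks, for the listed genes with a peak (35 genes), the other cell cycle and repair genes (192 genes) and all genes in the table (10818 genes). The depleted shares are 17.1%, 18.8% and 17.3%; the enriched share of the listed genes, 11.4%, includes Pms1 and Spidr and is 6.06% without them.

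Sequence from RefSeq on build GRCm38.p6 was at hand for windows of 250 nt before to 50 nt after a gene's start. No peak of the 41 genes reached such a window, and of the called peaks of the other pathway genes those of Cenpf and Bub3 did. They are shown 5′ to 3′ on the transcript strand, in DNA letters, because they are 1 called 5′ UTR peak in each direction.
Cenpf, enriched, first bases of the peak, minus strand, chr1:189688037-189688060: gaggaacggtgcgctgtgtgagga
Bub3, depleted, whole peak, plus strand, chr7:131560413-131560435: cggtagtggccggtgcagaaacg
The Cenpf stretch is 24 of the 79 nt of its peak and begins 26 nt from the start site. The Bub3 peak begins 81 nt from the start site on the upstream side. It thus lies before the RefSeq start used here, though its region class is 5′ UTR. The G and C share was 62.5% in the Cenpf stretch and 65.2% in the Bub3 peak. Neither holds the AU-rich pentamer ATTTA on the transcript strand, which says only that these letters are not in these short stretches.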

How the data were processed

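The eCLIP libraries (2 ZFP36L2 immunoprecipitations, 1 IgG immunoprecipitation and their inputs) were made from 20 ug of RNA (integrity number 8.35), per the labels' protocols. The submitters' processing notes name UMI-tools 1.1.1, cutadapt 3.2, STAR 2.7.7a, DESeq2 1.34.0 and build mm10, with no role or order. Peak calling, pooling, the use of inputs and normalization are not stated in these sources. The log2 fold change per peak was deposited by the authors, and its direction follows the table's name. The p-value and adjusted p-value are in the deposited table on the −log10 scale and were converted back. They differed by at most 0.0099 on that scale from a Benjamini-Hochberg adjustment. What spread the p-values measure is not given.

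Peaks were assigned to genes by the table's gene names, and the 41 symbols all matched RefSeq. No peak of these genes carried a second name. Members and lists were chosen with earlier results of these data known. Members with a called peak are named with all their calls, other members by range, and of the other pathway genes up to 6 per direction by adjusted p, with Bub3 added after its values were seen. No list was tested. With no genome sequence at hand, peak sequences were not searched for motifs, except the stretches shown. The adjustment and call rule were tested on simulated data. Python 3.11.15 and pandas 2.3.3 were used.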

Additional observations from a re-analysis of the deposited data

How the results depend on the processing

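The 5 enriched peaks in 4 of the listed genes stayed called at an adjusted p under 0.01 and under a Bonferroni correction. Over all peaks, 1056 and 750 of 1231 enriched calls passed these settings. The largest adjusted p of the 5 was 3.4e-06 by the authors' deposited table, in Parp1, so the cut at 0.01 could not have removed any. The remaining settings could not have removed them either, so these settings say nothing about how firm the calls are. The enriched values ran from 3.84 to 6.65, so a fold threshold of 2, or none, could not exclude any. Centring on the median raised these values and left each adjusted p as it was. No peak of the listed genes carried a second gene name, and no enriched peaks touched. Keeping 1 gene name per peak, or counting touching peaks once, thus left the enriched count unchanged. Without Pms1 and Spidr, a choice made after the data were seen, 2 peaks in 2 genes were enriched. The depleted calls depended on the threshold. At an adjusted p under 0.01, 7 of the 13 depleted peaks passed, and 19 of the other pathway genes had one in place of 36, while over all peaks 1864 of 3019 depleted calls passed. Under Bonferroni, 4 peaks in 2 of the listed genes passed (3 in Cdk6 and 1 in Spidr), and 4 of the other pathway genes had one, while 523 of all peaks were depleted. Centring moved all values by the same amount, and the 18 called values lay farther from 0 than that, so none could reverse. The median of the listed genes was then -0.17. That median was -1.31 as a median of gene medians, -1.20 over exonic and -1.27 over intronic peaks. With 1 peak per gene, and ties in adjusted p going to the highest log2 value, coding peaks made up 28.6% and intronic peaks 48.6%. Of peaks at least 3 log2 units from 0, 5 of the listed genes' peaks were higher and 9 lower as deposited (35.7% higher), and 5 higher and 0 lower (100%) once centred, where the same split over all peaks was 21.5% and 81.0% higher. No paired analysis was possible because the table has no column per library, so leaving out replicates was not run either. The search for AU-rich motifs in all peaks was not run.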
